A study of Mus musculus with 18 samples.

Results

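The genes described here are 9 that guide where B cells go: the chemokine receptors Cxcr4, Cxcr5, Ccr6 and Ccr7, the sphingosine-1-phosphate receptors S1pr1, S1pr2 and S1pr4, the oxysterol receptor Gpr183 and the G protein alpha subunit Gna13. They were taken by symbol from GENCODE release M21 on GRCm38, as 9 of 55413 genes on chromosomes 1 to 19, X and Y, of which 21938 are protein coding. All 9 symbols matched 1 protein-coding gene each. For every gene the peaks within 2 kb of any annotated transcription start site (TSS), called the promoter below, and the peaks over the gene body from annotated start to end were scored in all 12 peak lists.

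The study compared binding of the histone demethylase KDM2A and the mark it removes, dimethylated lysine 36 of histone H3 (H3K36me2), by ChIP-seq in splenic B cells of wild-type (WT) mice and of mice deficient for Mir155 (KO), both on a C57BL/6 background. B cells had been enriched by removing cells positive for CD43, Ter119 and CD4, stimulated with anti-CD40, an anti-IgM F(ab')2 fragment and IL-4, and cultured for 2 days at 1% O2, in both genotypes. These were therefore cultured, activated B cells and not germinal center cells sorted from tissue, and the study's methods give 1 age range for all its mice and no age for these samples. Each genotype had 3 libraries per antibody, replicate 1 being male and replicates 2 and 3 female in every group, while the 6 input libraries were not analysed here. Nothing beyond the sex label says that the replicates came from separate animals, so p-values measure only the spread between these libraries.

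As background, B cells find follicles through CXCR5, leave them or move to their outer edge through CCR7 and GPR183, and in germinal centers sort into dark and light zones through CXCR4 and CXCR5. S1PR1 draws lymphocytes out into blood and lymph, whereas S1PR2 signals through GNA13 to hold germinal center B cells in the middle of the follicle. KDM2A carries a CXXC zinc finger that binds unmethylated CpG, so it is found at CpG islands, and it demethylates H3K36me2, a mark that lies in broad domains over genes and between them.

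The lists differed in length. KDM2A lists held 23372 to 29105 peaks in WT and 15387 to 21705 in KO, covering 0.770 to 1.11% and 0.433 to 0.715% of the genome. H3K36me2 lists held 85387 to 94136 peaks in WT, covering 4.17 to 5.32% of the genome. The KO H3K36me2 lists stood apart from each other, with 106720 peaks in replicate 1, 37447 in replicate 2 and 45180 in replicate 3, covering 3.63%, 1.59% and 1.44%. The depth of the libraries is unknown, since the lists give no read numbers, and an absent peak means only that no peak was listed. A difference in coverage between genotypes cannot be told apart here from this difference between the lists. Coverage divided by the genome share of its list is therefore given where the direction depends on it. The lists do not measure RNA, so they give no check of Mir155 itself and say nothing of receptor expression. Of 9 B cell marker genes, 8 had a KDM2A promoter peak in at least 2 of 3 libraries of both genotypes and the other had it in WT, against 0 of 5 T cell, 0 of 4 myeloid, 0 of 2 NK and 0 of 2 erythroid markers in either genotype. H3K36me2 over the gene body did not divide the markers in that way. Peaks were in both genotypes at 2 of 9 B cell, 0 of 5 T cell, 2 of 4 myeloid, 1 of 2 NK and 0 of 2 erythroid markers. In WT only they were at a further 5 B cell and 1 myeloid markers, and at 0 of the other types.

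The promoter sequences of 6 of the 9 genes were in the RefSeq promoter table (GRCm38.p6), namely Cxcr4, Ccr6, S1pr2, S1pr4, Gpr183 and Gna13, while Cxcr5, Ccr7 and S1pr1 were not. The 250 bases upstream of the RefSeq start are shown for 5 of them, from the gene richest in CpG to the poorest, because KDM2A peaks lay over the former and mostly not over the latter. They read 5′ to 3′ on the strand of the gene, with each CG, the same on both strands, in capitals. Gna13 is at chr11:109362544-109362793 (+), Cxcr4 at chr1:128592300-128592549 (-), S1pr2 at chr9:20976794-20977043 (-), Gpr183 at chr14:121965194-121965443 (-) and S1pr4 at chr10:81500138-81500387 (-).
Gna13: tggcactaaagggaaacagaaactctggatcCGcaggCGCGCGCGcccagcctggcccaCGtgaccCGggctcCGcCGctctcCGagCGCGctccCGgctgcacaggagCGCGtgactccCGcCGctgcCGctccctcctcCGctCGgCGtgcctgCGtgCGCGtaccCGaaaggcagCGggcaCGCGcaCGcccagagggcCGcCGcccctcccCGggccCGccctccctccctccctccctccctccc
Cxcr4: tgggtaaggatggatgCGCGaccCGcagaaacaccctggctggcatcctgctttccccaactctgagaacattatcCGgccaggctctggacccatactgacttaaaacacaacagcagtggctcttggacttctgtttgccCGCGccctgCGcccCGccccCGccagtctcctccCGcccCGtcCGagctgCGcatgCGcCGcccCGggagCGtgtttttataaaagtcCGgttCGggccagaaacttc
S1pr2: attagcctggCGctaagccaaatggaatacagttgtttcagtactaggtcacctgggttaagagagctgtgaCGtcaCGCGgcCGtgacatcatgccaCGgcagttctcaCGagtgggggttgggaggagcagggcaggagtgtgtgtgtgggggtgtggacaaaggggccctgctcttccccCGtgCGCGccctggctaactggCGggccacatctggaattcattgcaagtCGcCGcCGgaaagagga
Gpr183: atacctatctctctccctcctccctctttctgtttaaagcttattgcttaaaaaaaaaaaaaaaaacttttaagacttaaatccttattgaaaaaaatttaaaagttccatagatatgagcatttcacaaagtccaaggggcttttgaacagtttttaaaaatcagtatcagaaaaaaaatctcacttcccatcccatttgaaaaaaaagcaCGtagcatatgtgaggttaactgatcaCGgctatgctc
S1pr4: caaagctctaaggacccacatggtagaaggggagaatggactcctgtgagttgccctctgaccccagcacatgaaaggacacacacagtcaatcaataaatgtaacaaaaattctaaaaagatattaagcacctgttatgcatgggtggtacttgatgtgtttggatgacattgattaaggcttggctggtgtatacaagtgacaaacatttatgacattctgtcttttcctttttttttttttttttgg

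Gna13 held 33 CG in these 250 bases, a number reached by 4.03% of the 32851 promoters in the table, whose median was 6. Cxcr4 held 19, reached by 19.7%, and S1pr2 held 14, reached by 29.4%. Gpr183 held 2, reached by 81.2%, and S1pr4 held 0. A KDM2A peak overlapped the stretch in 3 WT and 3 KO libraries at Gna13 and at Cxcr4, and in 3 WT and 2 KO libraries at S1pr2. At Gpr183 it did so in 1 WT and 0 KO libraries, and at S1pr4 in 2 WT and 0 KO libraries. The 2 Ccr6 promoters in the table, with 1 and 7 CG, lay under no KDM2A peak in any library and under an H3K36me2 peak in the 3 WT libraries.

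CpG islands, computed on the repeat-masked genome, lay within 2 kb of a TSS at 5 of the 9 genes. The Gna13 island spanned 1028 bp with 121 CpG, the S1pr2 island 956 bp and the Cxcr4 island 855 bp, the last of these 529 to 1383 bp downstream of the TSS. S1pr4 and S1pr1 had smaller islands of 354 and 271 bp. None was found at Cxcr5, Ccr6, Ccr7 or Gpr183. Across the annotation, 59.5% of genes with such an island and 2.82% of the others had a KDM2A promoter peak in both genotypes.

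KDM2A was listed at the promoters of most of these genes in both genotypes. Counting a promoter as bound when at least 2 of 3 libraries held a peak, 7 of 9 were bound in both genotypes (Cxcr4, Cxcr5, Ccr6, Ccr7, S1pr2, S1pr4 and Gna13), against 39.4% of all protein-coding genes. S1pr1 and Gpr183 were bound in WT only, as were 8.32% of protein-coding genes. Cxcr4, Cxcr5, Ccr7, S1pr2, S1pr4 and Gna13 had a promoter peak in all 6 libraries, and of these Cxcr5 and Ccr7 had no island. For H3K36me2, over the gene body, 4 of 9 genes were bound in both genotypes (Cxcr5, Ccr6, S1pr4 and Gpr183), against 24.9% of protein-coding genes. A further 4 were bound in WT only (Ccr7, S1pr1, S1pr2 and Gna13), against 17.2%, and Cxcr4 in neither. Without KO replicate 1, the H3K36me2 list with the most peaks, only Cxcr5 was bound in both genotypes and 7 genes were bound in WT only. At least 2 libraries were still asked for, so KO then needed a peak in both libraries left and WT in 2 of 3. These counts are therefore not like for like with those above.

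**Figure D1:**
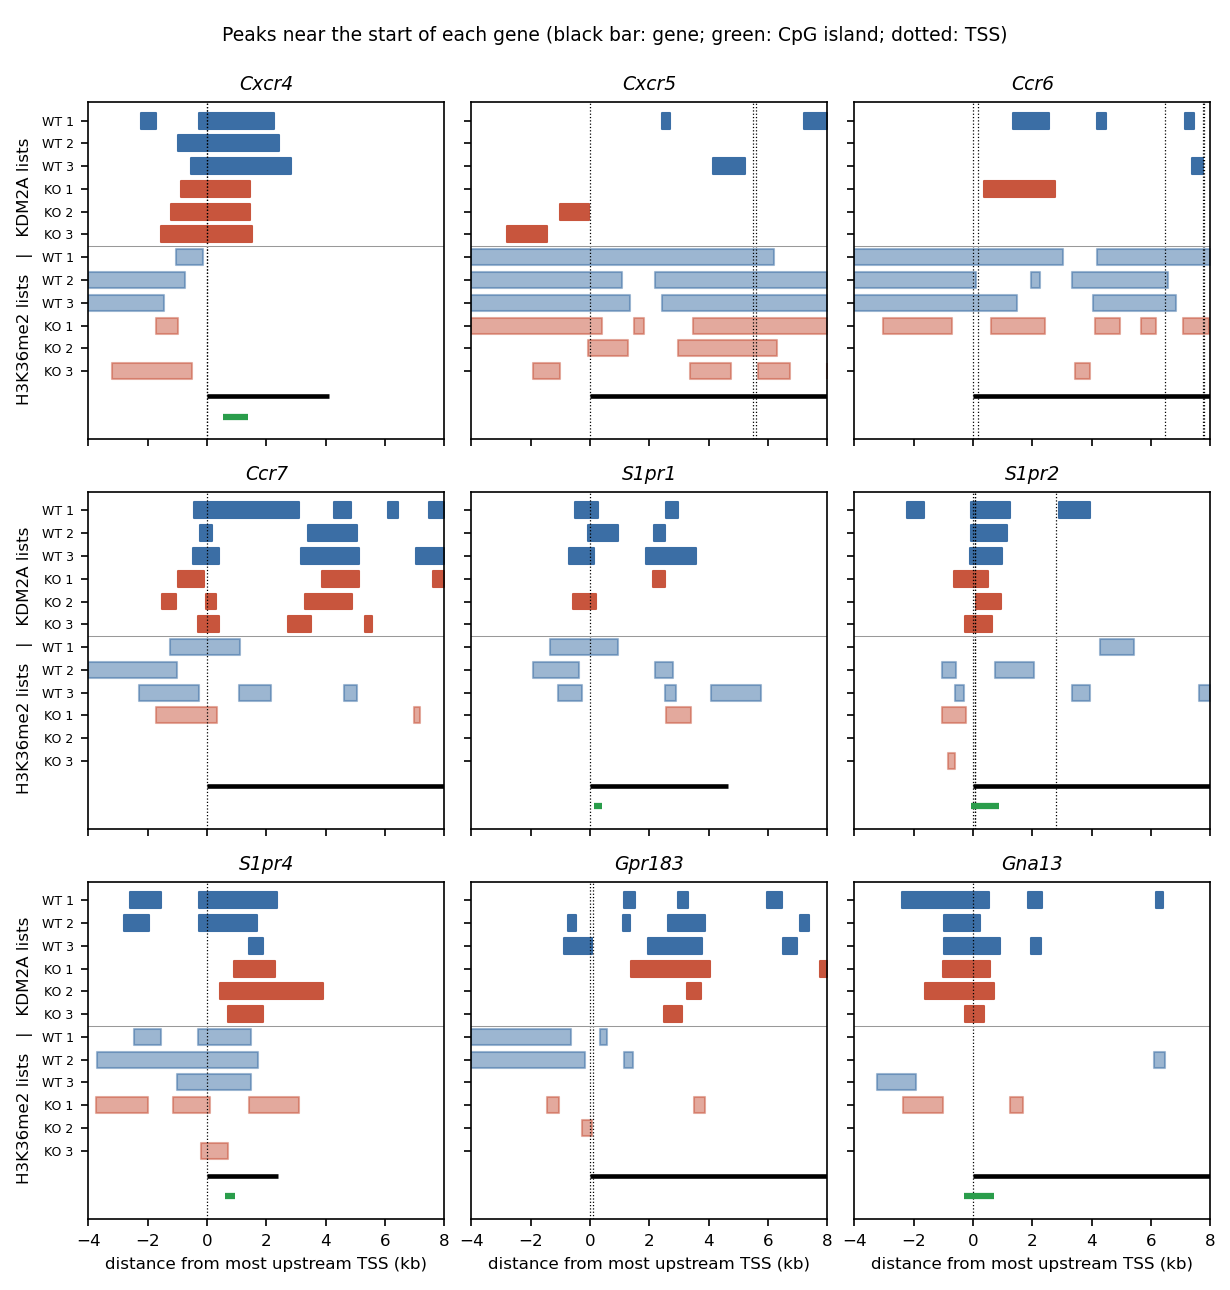
Peaks of the 12 lists from 4 kb upstream to 8 kb downstream of the most upstream TSS of each gene, with 1 row per library, KDM2A above the grey line and H3K36me2 in paler colour below it, WT in blue and KO in red. KDM2A peaks crossed the Cxcr4 and Gna13 TSS in all 6 libraries, while H3K36me2 peaks at Cxcr4 lay only upstream of it.

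CXCR4, which holds B cells in the bone marrow and in the dark zone of germinal centers, is encoded on the minus strand at chr1:128588199-128592293 (ENSMUSG00000045382.6). Its KDM2A peak crossed the TSS in every library. The fold of that peak, the authors' ratio over local background, was 3.75, 3.12 and 3.10 in WT replicates 1 to 3 and 2.95, 2.58 and 2.86 in KO. All 3 KO folds were below all 3 WT folds (mean 3.32 ± 0.367 against 2.80 ± 0.193, SD, n = 3 per genotype, exact permutation p = 0.1, the smallest that 3 against 3 libraries allow). As deposited, 10.7% of genes with a peak in all 6 libraries were lower in KO without overlap and 2.04% higher, so the lists differed at large. After each library was centred on its median log2 fold, the genotypes overlapped at Cxcr4.

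The Cxcr4 peak was also shorter on its downstream side in KO. It ended 2240, 2412 and 2843 bp into the gene in WT, past the island, and 1451, 1434 and 1520 bp into it in KO, close to the end of the island. The share of the gene body under KDM2A peaks stood at 54.7%, 58.9% and 69.5% in WT and 35.5%, 35.04% and 37.1% in KO (exact permutation p = 0.1). On the upstream side the peak began at -281, -968 and -528 bp from the TSS for the WT libraries and at -885, -1199 and -1558 bp for the KO libraries, which overlapped. Mean promoter coverage was 67.05% ± 6.22 for WT against 67.02% ± 9.33 for KO (SD, n = 3 per genotype). Divided by the genome share of each list, gene body coverage had a mean of 68.4 ± 16.5 for WT against 68.3 ± 14.9 for KO (SD, n = 3 per genotype), with overlap. Promoter coverage on that scale measured 57.5, 96.4 and 72.2 in WT and 119, 152 and 108 in KO, higher in every KO library, as were 10.6% of all genes tested, with 3.84% lower.

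H3K36me2 was absent from the lists over the Cxcr4 gene body in all 6 libraries. Upstream of the TSS it was listed in 3 WT libraries and in KO replicates 1 and 3, with its nearest base at -134, -735 and -1446 bp in the WT lists and at -995 and -510 bp in those 2 KO lists. In WT replicate 2 this domain was 17575 bp wide. Over the promoter and gene together, KDM2A and H3K36me2 peaks of the same replicate number shared 148, 234 and 0 bp for WT, and 0, 0 and 1049 bp for KO.

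CXCR5, the receptor for CXCL13 that leads B cells into follicles, had the largest body of these genes, 50091 bp on the minus strand at chr9:44511787-44561877 (ENSMUSG00000047880.15), and it overlaps Bcl9l. It has 5 annotated TSS. The most upstream stands alone, 2 lie 5486 and 5591 bp downstream, and a pair of TSS of coding transcripts lies 35295 and 35456 bp downstream. A KDM2A peak covered at least the former of this last pair in every library, and a peak near the most upstream TSS was listed in KO replicates 2 and 3 only. The highest promoter folds were 3.87, 3.24 and 2.91 in WT and 3.34, 2.67 and 3.13 in KO, and they overlapped. All of these were at the downstream pair except that of KO replicate 2, whose peak at the pair had a fold of 2.53. Further KDM2A sites present in all 6 libraries lay 23003 to 25043 bp into the gene and at its 3′ end, from 45305 bp on, where Bcl9l overlaps it.

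Cxcr5 was the only one of the 9 genes with H3K36me2 over its body in all 6 libraries, and the domain ended near the downstream TSS pair in each. Its last base was 34561, 35669 and 35103 bp into the gene in WT and 34032, 34087 and 34325 bp in KO. The KDM2A site there began at 33348, 32766 and 33364 bp in WT and at 34375, 34382 and 34837 bp in KO. Beyond that point the lists held only 1 H3K36me2 peak, of 316 bp, in KO replicate 1. In 5 of the 6 libraries the mark ended before that pair and in WT replicate 2 just past it, while KDM2A was listed on both sides.

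The Cxcr5 domain was in fewer, wider peaks in WT, within lists whose peaks were wider in WT at large, 1332 to 1617 bp on average against 872 to 1155 bp in KO. The gene body held 2, 5 and 3 peaks in WT and 10, 7 and 11 in KO, the widest of them 25546, 15646 and 17509 bp in WT and 8076, 10005 and 5662 bp in KO. Of the 4461 genes with a peak over the body in all 6 libraries, 43.6% had a narrower widest peak in KO without overlap, and 0.717% had more peaks in KO without overlap. They covered 63.4%, 61.9% and 65.5% of the body in WT and 49.3%, 42.8% and 36.2% in KO, without overlap (exact permutation p = 0.1). The highest fold did not follow: 2.91, 2.77 and 2.97 in WT and 3.17, 2.90 and 3.03 in KO. Centred log2 fold differed by 0.04 (SE 0.07, limma adjusted p = 0.967, 95% confidence interval -0.09 to 0.18). Divided by the genome share of its list, the mean coverage was higher for KO, 21.9 ± 7.24 against 13.1 ± 1.86 for WT (SD, n = 3 per genotype), with overlap.

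**Figure D2:**
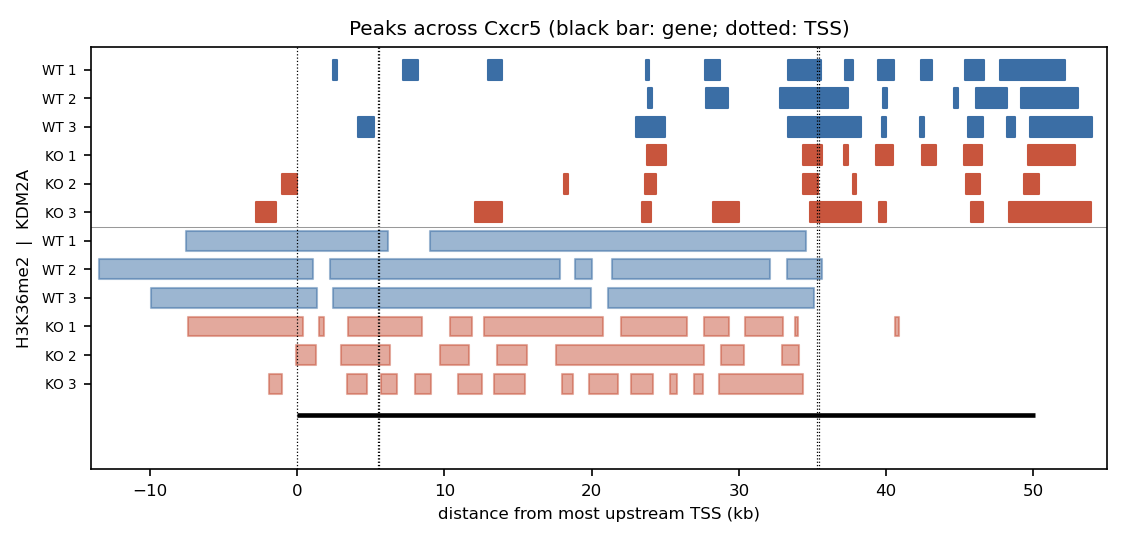
Peaks across Cxcr5 by distance from its most upstream TSS in kb, 1 row per library, WT in blue and KO in red, KDM2A above the grey line and H3K36me2 below. The H3K36me2 domain ended near the downstream TSS pair, where a KDM2A site lay in all 6 libraries, and the domain was listed as 2 to 5 peaks over the gene in WT and 7 to 11 in KO, whose lists had narrower peaks at large.

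CCR6, the receptor for CCL20, is encoded on the plus strand at chr17:8236043-8257141 (ENSMUSG00000040899.14). Its promoter had the lowest mean KDM2A coverage of the 9 in WT. The highest promoter fold was 2.57 and 2.62 in WT replicates 1 and 3 and 2.72 and 2.55 in KO replicates 1 and 2, and the other libraries listed none. Those peaks covered 14.3%, 0% and 8.86% of the promoter in WT and 16.9%, 4.78% and 0% in KO, with full overlap. H3K36me2 lay over the promoter in WT, at 97.9%, 55.4% and 74.8%, against 54.6%, 0% and 0% in KO, which did not overlap. Divided by the genome share these became 23.5, 10.4 and 14.3 against 15.05, 0 and 0, and overlapped. Over the body it came to 50.5%, 36.4% and 30.6% in WT and 36.5%, 0% and 2.38% in KO, so KO replicate 1 stood within the WT range.

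CCR7, which draws B cells toward the T cell zone, is encoded on the minus strand at chr11:99144196-99155077 (ENSMUSG00000037944.8). KDM2A was listed near its TSS in all 6 libraries, with folds of 2.78, 2.88 and 2.95 in WT and 2.88, 2.51 and 2.58 in KO. Further peaks between 2738 and 5134 bp downstream were also listed in every library, with folds of 3.00, 2.98 and 2.98 for WT and 3.11, 2.67 and 2.63 for KO. Promoter coverage stood at 60.8%, 9.82% and 21.9% in WT and 21.9%, 21.3% and 17.8% in KO, and WT replicate 1 alone carried the higher WT mean. H3K36me2 covered 58.6%, 24.6% and 66.1% of the promoter in WT and 51.1%, 0% and 0% in KO.

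Of the sphingosine-1-phosphate receptors, S1PR1, the receptor for egress, is encoded on the minus strand at chr3:115710433-115715072 (ENSMUSG00000045092.8). The TSS of Gm9889 also lies in its promoter window. KDM2A folds there were 2.40, 2.96 and 2.61 in WT, and 2.61 in KO replicate 2, with no peak in the other KO lists. Over the gene body KDM2A covered 14.4%, 28.4% and 39.3% in WT and 8.28%, 4.57% and 0% in KO (exact permutation p = 0.1). Relative to the genome share these became 13.04, 36.9 and 44.8 against 16.8, 10.6 and 0, and overlapped. H3K36me2 covered 57.8%, 38.3% and 20.3% of the promoter in WT and 0% in each KO library. The gene had peaks there through WT alone, so its genotypes had to differ and no test is given. This was the only one of the 9 promoters with H3K36me2 in 3 WT and 0 KO lists.

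S1PR2, the receptor that confines germinal center B cells, is encoded on the minus strand at chr9:20962361-20976781 (ENSMUSG00000043895.6). Its KDM2A peak over the island was listed in every library, with folds of 2.75, 3.08 and 2.92 in WT and 3.22, 2.92 and 2.98 in KO. After centring it was the only one of 6 tested genes whose genotypes did not overlap, higher in KO by 0.12 on the log2 scale (SE 0.10, limma adjusted p = 0.912). The folds as deposited overlapped, with a log2 difference of 0.06, and the centred difference was 0.07 in the female libraries alone. Of 7 KDM2A sites at the gene, the other 6 were listed in WT libraries only, each of them in 1 or 2. Over the 9 genes 26 of 53 sites were in WT libraries only and 7 in KO libraries only, with 4 and 3 at Cxcr5 and 1 and 2 at Ccr7, where 52.4% and 23.7% of all 67878 KDM2A sites were so. The gene body was covered at 22.6%, 17.6% and 15.8% in WT and 3.502%, 5.87% and 4.50% in KO (exact permutation p = 0.1), and the genotypes stayed apart relative to the genome share, a mean of 20.4 ± 2.38 against 8.99 ± 3.97 (SD, n = 3 per genotype), as for 5.32% of all genes lower and 8.02% higher in KO on that scale. H3K36me2 covered 19.9%, 22.4% and 16.2% of the body in WT and 7.63%, 0% and 0% in KO. By the rule of at least 2 libraries the body was bound in WT only, so no permutation p is given. On the relative scale KO replicate 1, the only KO library above 0, was also below each WT library, at 2.104 against 3.08 to 4.76, with 9.56% of all genes lower and 1.73% higher in KO on that scale.

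S1PR4, a receptor found mainly in blood cells, is encoded on the minus strand at chr10:81497747-81500132 (ENSMUSG00000044199.6) in only 2386 bp. KDM2A crossed its TSS in WT replicates 1 and 2 only, and in the other 4 libraries the peak began 443 to 1427 bp downstream, where the island spans 595 to 948 bp. Folds were 2.55, 2.97 and 2.44 in WT and 3.06, 2.98 and 2.58 in KO. H3K36me2 covered 61.4%, 72.3% and 61.4% of the body in WT and 45.6%, 0% and 29.1% in KO, without overlap (exact permutation p = 0.1). Relative to the genome share it measured 14.7, 13.6 and 11.7 in WT and 12.6, 0 and 20.1 in KO, which overlapped. Within the gene and its promoter, in lists of the same replicate number, 70.95%, 100% and 8.67% of the KDM2A bases in WT lay under H3K36me2, and 63.4%, 0% and 0% in KO.

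GPR183, the receptor for 7α,25-dihydroxycholesterol also known as EBI2, is encoded on the minus strand at chr14:121952551-121965195 (ENSMUSG00000051212.8), and overlaps Ubac2. KDM2A was listed within 2 kb of its TSS in 3 WT libraries, with highest folds of 2.89, 2.95 and 2.99, and in KO replicate 1 with 2.79. Upstream of the TSS it was listed in WT replicates 2 and 3 only. The site present in all 6 libraries was in the intron, 1118 to 4046 bp from the TSS, with highest folds of 2.89, 2.94 and 2.80 in WT and 2.79, 2.85 and 2.47 in KO, so the values of replicate 1 are those of this site. H3K36me2 was low over the body, 6.49%, 2.15% and 0% in WT and 4.31%, 0.601% and 0% in KO, and overlapped. At the promoter it was listed in both genotypes, as domains of 5227 and 8248 bp upstream of the TSS in WT replicates 1 and 2 and as shorter peaks in KO replicates 1 and 2, at -1448 to -1049 bp and -270 to 75 bp.

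GNA13, the G protein subunit that passes the S1PR2 signal to the cytoskeleton, is encoded on the plus strand at chr11:109362831-109401369 (ENSMUSG00000020611.14). Its promoter is shared with Gm11696. KDM2A crossed its TSS within the island in every library, with promoter folds of 2.90, 3.51 and 2.97 in WT and 2.71, 3.05 and 3.02 in KO, which overlapped. Promoter coverage came to 67.2%, 31.0% and 49.2% in WT and 39.5%, 58.1% and 16.0% in KO. Of its 8 KDM2A sites the other 7 were listed in 1 or 2 libraries each, 6 of them in WT only and 1 in KO only. H3K36me2 covered at most 0.968% of the body in a WT library and 5.47%, 0% and 0% in KO, so little of the gene with the most CpG was under H3K36me2. At the promoter the mark was listed in WT replicate 3 at 2.40% and in KO replicate 1 at 36.4%.

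Across the 9 genes, promoter coverage by KDM2A in WT ran from 67.05% at Cxcr4 through 49.1% at Gna13, 43.5% at S1pr4, 33.1% at Cxcr5, 30.8% at Ccr7, 24.6% at S1pr2, 22.6% at S1pr1 and 16.2% at Gpr183 to 7.72% at Ccr6. The libraries of any neighbours in this order overlapped. For H3K36me2 over the body in WT, S1pr4 at 65.0% and Cxcr5 at 63.6% overlapped each other and stood apart from Ccr6 at 39.2%, which stood apart from S1pr2 at 19.5%. S1pr1 at 18.02%, Ccr7 at 8.12%, Gpr183 at 2.88%, Gna13 at 0.554% and Cxcr4 at 0% followed, each overlapping its neighbour except that the Cxcr4 value was 0 in every library. The widths of the windows differ between genes, so these are shares of each window.

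**Figure D3:**
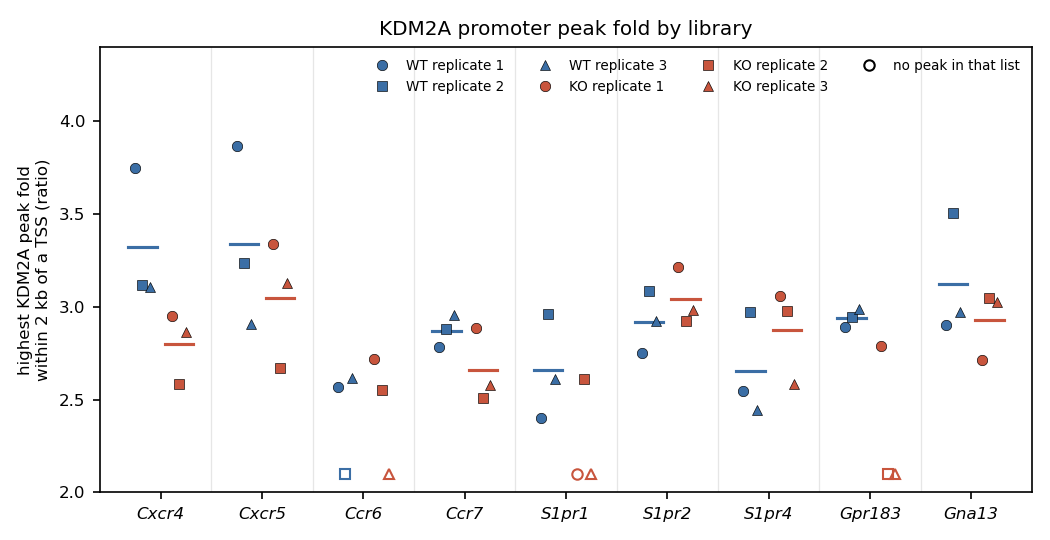
Highest KDM2A peak fold (the authors' ratio over local background) within 2 kb of a TSS for the 9 genes, by library; lines are means of the listed libraries where all 3 of a genotype had a peak, and open marks are libraries without a peak. At Cxcr4 the 3 WT libraries sit between 3.10 and 3.75 and the 3 KO libraries between 2.58 and 2.95.

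The test across all genes called none of these differences. For KDM2A promoter fold, 6 of the 9 genes had a peak in all 6 libraries and were tested among 7246 genes. limma called 0% of the genes at an adjusted p under 0.05, with 377 at an unadjusted p under 0.05, 0 of them among the 6. The mean was lower in KO at Cxcr4, Cxcr5, Ccr7 and Gna13 and higher at S1pr2 and S1pr4. Leaving out 1 library turned the sign at Cxcr5, to 0.07 without WT replicate 1 and 0.01 without KO replicate 2, and at Gna13, to 0.02 without WT replicate 2 and 0.03 without KO replicate 1. The centred log2 fold differed by -0.18 at Cxcr4 (SE 0.12, limma adjusted p = 0.892, 95% confidence interval -0.42 to 0.06), or -0.07 without WT replicate 1, and by 0.18 at S1pr4 (SE 0.10, limma adjusted p = 0.892). The median difference was -0.04 for the 6 genes and 0.00 for all genes tested, and for the 6 it was 0.01 without WT replicate 1 and -0.01 without KO replicate 2. Of the 6, 0 were lower and 1 was higher in KO without overlap, against 5.45% and 5.38% of all genes tested.

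For KDM2A promoter coverage, all 9 genes were among the 15389 tested, those with a peak in at least 2 of 6 libraries. Every mean was lower in KO, as were those of 74.5% of all genes tested, with a median difference of -10.5 percentage points against -3.16 for all of them. Without WT replicate 1 both medians were alike, -2.25 for the 9 genes and -2.25 for all, and in the female libraries alone they were -3.05 and -2.16. The sign rested on single libraries at 4 genes. Without WT replicate 1 the difference was 2.80 points at Ccr6, 4.52 at Ccr7 and 1.13 at S1pr4. At Cxcr4 it was -0.03 with all libraries and 3.55 without WT replicate 2, 4.29 without KO replicate 1 and 0.583 without KO replicate 2. At Ccr6 it was also above 0 without WT replicate 3, at 0.0778, without KO replicate 2, at 0.733, and without KO replicate 3, at 3.12. With the same number of strongest peaks taken from each list, the difference was above 0 at Cxcr4 (2.17), Ccr6 (7.23) and S1pr4 (15.7), and -1.76 at S1pr1. limma again called 0% of the genes, with 1279 at an unadjusted p under 0.05, and the smallest adjusted p among the 9 was 0.555 at S1pr1, the only 1 of the 9 with an unadjusted p under 0.05. S1pr1 met the filter through WT alone, with a KO peak in replicate 2 only, so its p supports nothing. In each of the 9 genes the genotypes overlapped, whereas 12.9% of all genes tested were lower and 1.18% higher in KO without overlap. Divided by the genome share, the KO mean was the higher at Cxcr4, Ccr6, Ccr7, S1pr2, S1pr4 and Gna13. Over the gene body, KDM2A coverage was lower in KO without overlap at 3 of 9 genes, Cxcr4, S1pr1 and S1pr2, and higher at 0, against 14.2% and 1.24% of 15851 genes.

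**Figure D4:**
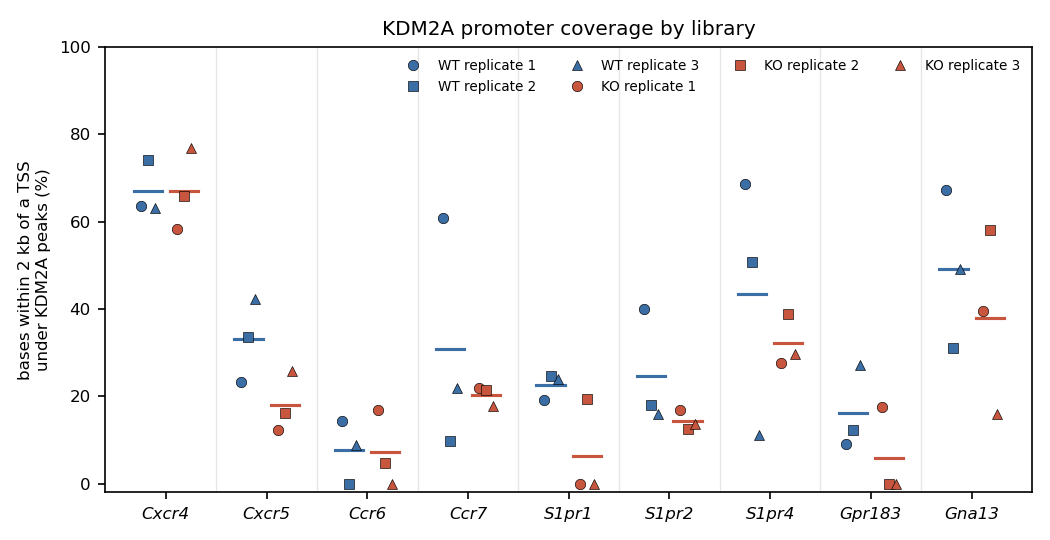
Percent of the bases within 2 kb of any TSS under KDM2A peaks for the 9 genes, by library, with a line at each mean. The mean is lower in KO at every gene, with differences from -16.1 points at S1pr1 to -0.03 points at Cxcr4, and the libraries overlap at each.

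For H3K36me2 gene body coverage, 8 genes were tested among 16320, all but Cxcr4. limma called 0.276% of the genes, 45 in number and none of them among the 8, with 2606 at an unadjusted p under 0.05, S1pr2 and S1pr4 among them. The mean was lower in KO at 7 of the 8 and higher at Gna13, with a median difference of -14.6 percentage points against -6.13 for all genes tested. The largest was at S1pr4, -40.2 points (SE 15.1, limma adjusted p = 0.287, 95% confidence interval -76.8 to -3.54). S1pr2 differed by -17.0 points (SE 4.71, limma adjusted p = 0.287). It met the filter of a peak in at least 2 libraries through WT alone, KO replicates 2 and 3 being at 0%. Its p therefore supports nothing. The sign changed with 1 library left out at Gpr183, to 0.561 without WT replicate 1, and at Gna13, to -0.554 without KO replicate 1. Cxcr5, S1pr2 (tested through WT alone) and S1pr4, 3 of the 8, were lower in KO without overlap and 0 were higher, against 25.1% and 0.123% of all genes tested. At promoters, 4 of 9 genes were lower without overlap, Cxcr5, Ccr6, S1pr1 and S1pr4, and 0 higher, against 21.8% and 0.261% of 18422 genes. Of the 4, S1pr1 was listed through WT alone and Ccr6 met the filter through WT alone. Relative to the genome share, of these 4 only S1pr1, whose KO values are 0 on any scale, was still lower, against 10.4% of all genes, Ccr6 and S1pr4 overlapped, and Cxcr5 was higher in KO without overlap, as were 1.82% of all genes, at 15.6, 14.6 and 14.4 for WT against 15.9, 25.5 and 24.2 for KO.

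Within the female libraries alone, limma called 25.9% of 12878 genes for H3K36me2 gene body coverage, and the genes past the threshold among the 6 tested were Ccr6 by -32.3 points (adjusted p = 0.0329), S1pr2 by -19.3 (adjusted p = 0.0427) and Cxcr5 by -24.2 (adjusted p = 0.0480). S1pr2 met the filter of a peak in at least 2 libraries through WT alone, its female KO libraries being at 0 and 0, so it had to differ and its p supports nothing. Ccr6 also reached that filter with its WT libraries alone, at 36.4% and 30.6%, against 0% and 2.38% in the female KO libraries. Its p supports nothing either. Cxcr5 was listed in every female library of both genotypes. The male libraries, 1 per genotype, allow no test. The female KO libraries are those with the short lists. Over all libraries limma called 45 genes before division by the genome share and 0 after it, with 1029 then at an unadjusted p under 0.05. The division was not made for the female libraries alone, so it says nothing of their calls. The part of list length in these differences was not tested. For H3K36me2 gene body fold, only Cxcr5 had a peak in all 6 libraries, and limma called 0% of 4461 genes, with 250 at an unadjusted p under 0.05. Without overlap, 5.47% of those genes were lower and 5.72% higher in KO, and Cxcr5 was in neither set.

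**Figure D5:**
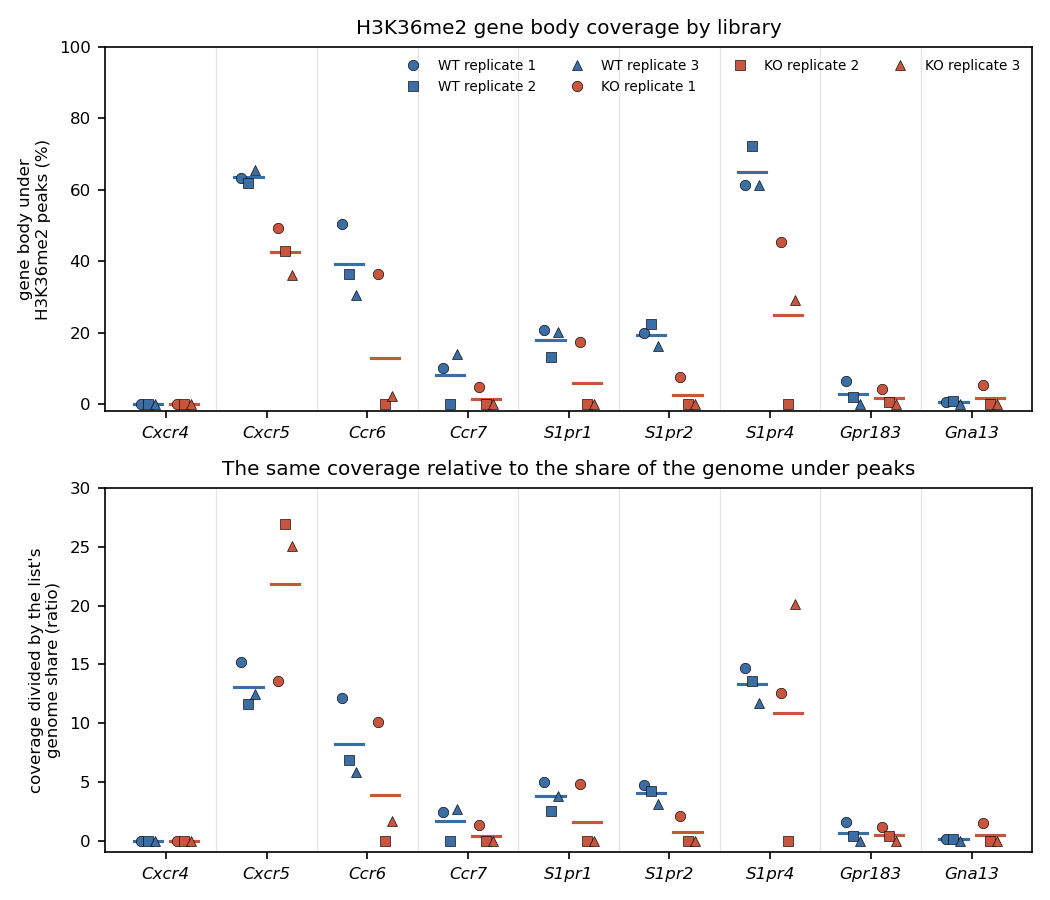
Percent of each gene body under H3K36me2 peaks by library (top) and the same divided by the percent of the genome under peaks in that list (bottom), with a line at each mean. At Cxcr5 the 3 KO libraries are below the 3 WT libraries in the top panel, at 36.2 to 49.3% against 61.9 to 65.5%, and overlap them in the bottom panel.

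Of 76 other genes of the pathway in 5 lists, all annotated, limma called 0 in any of the 4 comparisons, with 0, 6, 13 and 1 of them at an unadjusted p under 0.05 for KDM2A promoter fold, KDM2A promoter coverage, H3K36me2 gene body coverage and H3K36me2 gene body fold. KDM2A promoter fold was tested in 26, lower in KO on average in 15 and higher in 11, and 2 were lower without overlap, against 5.45% of all genes tested. These were Gpr132, a lysophospholipid-sensing receptor, with a centred difference of -0.20 (SE 0.12), and Itgb7, an integrin chain, with -0.08 (SE 0.09). Promoter coverage was tested in 45, of which 34 were lower and 11 higher, 11 and 1 of them without overlap, with a median of -7.17 points. Of all genes tested 74.5% were lower, 12.9% and 1.18% were lower and higher without overlap, and the median was -3.16 points. After division by the genome share, 19 of the 45 were lower and 26 higher, 0 and 1 of them without overlap, against 3.84% and 10.6% of all genes tested. Ccr10, a receptor of antibody-secreting cells, gave 56.5%, 40.1% and 57.6% in WT and 9.50%, 0% and 37.8% in KO, a difference that did not pass the test (limma adjusted p = 0.526). The receptor kinase gene Grk2 gave 93.6%, 54.6% and 53.4% in WT and 33.6%, 36.4% and 29.96% in KO. The only gene that was higher without overlap was Gnai3, an inhibitory G protein subunit, by 5.31 points (SE 4.69), and it stayed so on the relative scale, where Ccr10 and Grk2 overlapped.

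KDM2A bound the promoter of 39.4% of all protein-coding genes in both genotypes and of 50% in neither. By list, KDM2A promoter peaks were in both genotypes at 15 of 21 genes for G proteins, RGS proteins, receptor kinases and arrestins and at 10 of 15 for adhesion, motility and regulators such as Klf2 and Foxo1. They were at 5 of 13 genes for ligands and the enzymes that make or clear them, at 3 of 8 other lipid and orphan receptors, and at 2 of 19 other chemokine receptors. Of those 19, 15 were bound in neither genotype, beside the chemokine receptor genes described above, bound at 4 of 4; this difference was not tested. H3K36me2 gene body coverage was tested in 51 of the 76, with 49 lower and 2 higher on average, 19 lower without overlap and a median of -7.28 points, where 88.9% of all genes tested were lower, 25.1% without overlap, with a median of -6.13 points. The largest such differences were at Ccr1, -34.3 points (SE 12.8), and Spns2, the exporter of sphingosine-1-phosphate, -31.2 points (SE 12.6). Relative to the genome share both of these overlapped. Of the 51 genes, 32 were then lower and 19 higher, 7 and 1 of them without overlap, against 9.56% and 1.73% of all genes tested. For H3K36me2 gene body fold, 26 were tested, 16 lower and 10 higher, with 0 free of overlap.

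Each gene was also compared with the 21929 other protein-coding genes over 12 values, KDM2A promoter coverage and H3K36me2 gene body coverage in 6 libraries each. The nearest by Euclidean distance, in percentage points, was Ier3 for Cxcr4 at 16.7, where the median gene stood at 162. It was Cnp for Gna13 at 19.04, Rab33b for Ccr7 at 16.9, Cyhr1 for S1pr2 at 15.3, Ist1 for Gpr183 at 13.7 and Gm20662 for S1pr1 at 11.3. Sorbs3 was nearest to Ccr6 at 22.4, Zpbp2 to Cxcr5 at 35.3 and Klf13 to S1pr4 at 52.6. The median gene stood at 154 from S1pr4 and at 36.6 from Gpr183, so nearest distances cannot be compared between genes. Among the 9, S1pr1 and S1pr2 stood 35.4 apart and Ccr7 and S1pr2 35.6, the smallest distances, while Cxcr4 was farthest from Cxcr5 at 169.3 and from Ccr6 at 168.5. Cxcr4 had high KDM2A and no H3K36me2 over its body, and Cxcr5 had H3K36me2 over 36.2 to 65.5% of it. These distances share libraries and describe likeness in the lists, with no test.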

How the data were processed

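Peak lists of 12 ChIP-seq libraries were analysed. Per the labels and the study's methods, the authors ran the nf-core/chipseq pipeline, in which BWA placed the reads on GRCm38 and MACS2 made a list of broad peaks for each library, without pooling replicates. The methods give the version and options of the pipeline, while the caller's own version and thresholds were not given in the sources used here. The deposited fold of a peak is a ratio over local background that is not scaled between libraries. Each deposited peak also carries its p-value and its q-value as −log10, which served only as a threshold and to order peaks. Depth is not known.

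Genes were those of GENCODE M21. A peak was counted with 1 bp of overlap. limma 3.58.1 (R 4.3.3; lmFit, eBayes with trend, Benjamini-Hochberg over all genes tested) compared KO with WT, 3 libraries each. The highest fold was log2 transformed and centred on the library's median over genes with a peak in all 6 libraries. Coverage, the percent of a region under peaks, was tested for genes with a peak in at least 2 of 6 libraries. For a value of 1 gene, the exact permutation test was used, two-sided. CpG islands were segments over 200 bp with at least 50% GC and CpG above 0.6 of its expected number, found with a running score of 17 per CpG. Other pathway genes were named by the largest difference without overlap, at most 2 per direction and comparison. The alternatives were other thresholds, windows, scalings, filters and sets of libraries. The scripts were tested on simulated data. The 9 genes, lists and tests were chosen with earlier results of these data known.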

Additional observations from a re-analysis of the deposited data

Results flagged for a closer look

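Replicate 1 was male and replicates 2 and 3 female, and KO minus WT was compared between them for 35 measures of the 9 genes with a value in every library. In 3 of the 35 the male difference had the opposite sign to every female difference. Female differences were taken between libraries of the same number, although the numbers were not otherwise taken to pair the samples. With 1 male library per genotype no test of male against female effects was made, so the difference was not tested, and the female KO H3K36me2 lists are also the shortest. The highest KDM2A promoter fold at Ccr7 was higher in KO by 0.103 in the males, and differed by -0.372 on average in the females. H3K36me2 promoter coverage at S1pr2 was higher in KO by 4.04 percentage points in the males, and differed by -18.0 points in the females. KDM2A promoter coverage at Gpr183 was higher in KO by 8.41 points in the males, and differed by -19.8 points in the females.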

How the results depend on the processing

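KDM2A promoter fold gave 0 calls by limma under each alternative tried, and KDM2A promoter coverage under each but 1. With no filter on genes without peaks it gave 310, a fit in which most genes had no residual variance. H3K36me2 gene body coverage, with 45 calls, moved most. It gave 15 at a −log10 q of at least 2, and 0 with equal numbers of the strongest peaks per list, with coverage divided by the genome share, and with no filter. Leaving out 1 library gave 0 to 227 calls, and the females alone gave 3334. The 3 genes past the threshold in the females, Ccr6, S1pr2 and Cxcr5, passed it under no other alternative. For Cxcr5 the difference changed sign after division by the genome share, to 8.76 on that scale. H3K36me2 gene body fold gave 1 call without centring.

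Same-numbered libraries deviated together with correlations of -0.0175 to 0.0399, so the numbers were not taken to pair the samples. With the replicate block, H3K36me2 gene body coverage gave 0 calls and H3K36me2 gene body fold 2, while both KDM2A measures kept 0.

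Of the 9 genes, KDM2A promoters bound in WT only fell from 2 to 1 with equal numbers of peaks, and those bound in KO only rose from 0 to 2, Ccr6 and S1pr4. Leaving out 1 library gave 0 to 1 in KO only, Ccr6 without WT replicate 1 or 3. H3K36me2 gene bodies bound in both genotypes fell from 4 to 1 at the stricter q and to 1 with equal numbers of peaks, and were 1 to 4 with 1 library left out. Those bound in WT only became 1 and 2, and 2 to 7 with 1 library left out, the extremes being without WT replicate 1 and without KO replicate 1. Those bound in KO only were 0 to 1, Gpr183 without WT replicate 1 or 2. With 1 library left out, the rule of at least 2 libraries asked for both libraries left in that genotype, but for 2 of 3 in the other. A gene listed in 2 of 3 libraries could change class by that rule alone. Any other cause of these changes was not tested. No share of all genes is given beside these counts, so they are not read as results about the 9 genes. Depth, not given in the lists, limits what an absent peak can show.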
